A study of Mus musculus with 15 samples.

Results

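Chemokine ligand and receptor genes other than the neutrophil-attracting CXC set were examined in whole mouse skin that was unwounded or wounded and treated with tamoxifen or vehicle. Members were all genes of the deposited expression table whose symbol begins with Ccl, Ccr, Cxcl, Cxcr, Cx3cl, Cx3cr, Xcl, Xcr or Ackr and a digit, without Cxcl1, Cxcl2, Cxcl3, Cxcl5 and Cxcr2. They numbered 57 of 24543 genes, with 35 ligand genes and 22 receptor genes.

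Chemokines are small secreted proteins that guide the migration of leukocytes and other cells along concentration gradients. They bind receptors that span the membrane and signal through inhibitory G proteins, and one receptor often answers to several ligands. Atypical receptors bind chemokines without that signal and take them up or carry them across cells. In skin, keratinocytes, fibroblasts, endothelium and resident immune cells all release chemokines, and wounding brings in neutrophils and then monocytes along them.

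All 15 libraries came from K14CreERTM/LSL-SOX2 mice of the mixed strain labelled 129/SvEv/C57/B16 X CD-1. In such mice a Cre recombinase under the keratin 14 promoter, which is active in basal keratinocytes, becomes active with tamoxifen and is meant to turn on a silent SOX2 transgene. Tamoxifen (200 µl of 5 mg/ml, dissolved in ethanol) or the ethanol vehicle alone was put on the skin, which was taken unwounded at day 0 or wounded at day 4. There were 4 libraries of each of the wounded sets, 3 of unwounded tamoxifen skin, numbered 2 to 4, and 4 of unwounded vehicle skin. None of the groups carried tamoxifen without the transgene, so tamoxifen and SOX2 cannot be told apart here, nor can wounding and day. Whether each library is a separate mouse is not said in the labels. Where mice were shared, the spread behind the p-values is that of samples and may be technical.

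For the 8 wounded libraries the sources contradict each other on the treatment. Wounded set A is the 4 libraries that the sample records call tamoxifen and the deposited gene tables call vehicle. Wounded set B is the 4 that the sample records call vehicle and the gene tables call tamoxifen. The deposited sample sheet marks the gene tables' version as the newer one. No direction of treatment is therefore read from set A against set B. Unwounded libraries carry the same name everywhere.

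Depth was 39277860 to 75102345 alignments per library. Summed RPKM (reads scaled to gene length and library size) of Krt5, Krt14, Krt1 and Krt10 was 3707 to 13775 in every library, as in skin. Sox2 was at 1.87 to 3.82 RPKM in set A and 2.07 to 2.64 in set B, and in unwounded skin at 1.98 to 2.89 with tamoxifen and 1.85 to 2.57 with vehicle, so the groups overlapped. Summed RPKM of 6 hair follicle differentiation genes was 10597 to 14222 with tamoxifen and 7.44 to 14.4 with vehicle in unwounded skin. In set A it ran between 6.97 and 1029, with replicate 2 highest, and in set B between 1808 and 3820. In bulk skin, fewer cells of a type and less RNA per cell cannot be told apart.

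Ccl8, which in mouse acts through the receptor CCR8 and is made by macrophages, was the most abundant member in set A and in unwounded vehicle skin. It averaged 1469 ± 70.99 RPKM across set A and 277 ± 74.7 across set B (SD, n = 4 each), and 69.1 ± 19.8 (n = 3) in unwounded tamoxifen skin and 1000.1 ± 153 (n = 4) in unwounded vehicle skin. Ccl8 alone made up 49.8 to 61.2% of the members' summed RPKM in set A and 17.8 to 28.6% in set B. In set B the most abundant member was Ccl6 in replicates 2 and 3, and Ccl8 in replicates 1 and 4. In all 3 unwounded tamoxifen libraries it was Cxcl14, a chemokine that epithelia make constitutively, at 183 ± 42.1 RPKM, with 37.8 ± 8.58 in vehicle skin. Summed over the 57 members, RPKM was 2310.0 to 3061 in set A, 1142 to 1353 in set B, and in unwounded skin 387 to 535 with tamoxifen and 1596 to 1984 with vehicle. These ranges do not overlap between groups, and 28 members had a mean over 10 RPKM in at least 1 group.

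**Figure D1:**
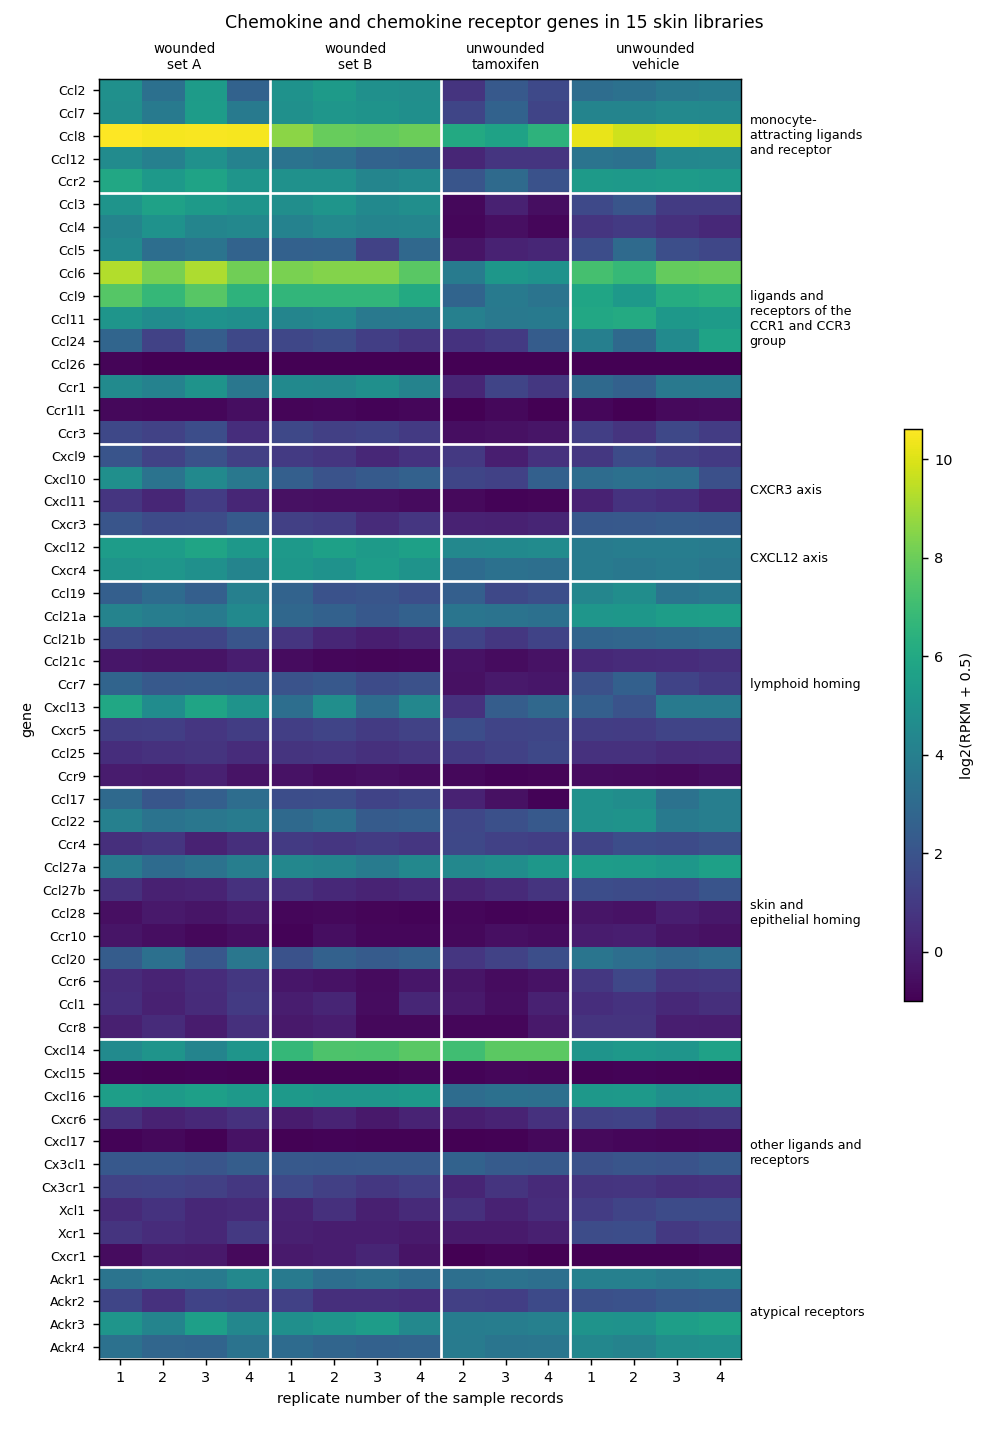
Heat map of log2(RPKM + 0.5) for 56 members (rows, grouped by role) in the 15 libraries (columns, grouped as wounded set A, wounded set B, unwounded tamoxifen and unwounded vehicle). Ccl8 is brightest in set A and unwounded vehicle skin, and Cxcl14 in set B and unwounded tamoxifen skin.

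In unwounded skin most chemokine and receptor genes were lower with tamoxifen than with vehicle. Of the 47 members with at least 1 RPKM in at least 3 libraries, 40 fell, 4 rose and 3 did not pass the test (limma, adjusted p under 0.05 over all 13922 genes tested). Ccr6, Xcr1, Cxcl11 and Ccr8, all among the 40, passed this filter only with unwounded vehicle libraries included, which favours a call of a fall. Over all genes tested, 69.4% were called, 34.7% as lower and 34.7% as higher. The median difference of the 47 was -1.50 on the log2(RPKM + 0.5) scale, and it was -1.16 over all 57 without the filter. Among ligand genes 24 of 29 fell and 4 rose, and among receptor genes 16 of 18 fell and none rose. The 4 that rose were Cxcl14, Cxcl12, Ccl25 and Cx3cl1. Cxcr5, Cx3cr1 and Cxcl13 did not pass the test. Differences of at least 2-fold were called for 32 members, with 20.4% of all genes. The 3 tamoxifen libraries did not overlap the 4 vehicle libraries for 41 of the 47 members, and for 69.6% of all genes tested. The median over all genes tested lay between -0.05 and 0.01 in each of the comparisons below. This scale understates the change of genes at low RPKM.

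Markers of several cell types moved with these genes. With tamoxifen 7 of 7 macrophage and monocyte markers fell (median -3.03), and their summed RPKM was 172 to 230.4 with tamoxifen and 1298 to 2385 with vehicle. Dendritic and Langerhans cell markers fell in 6 of 6 (median -2.50), with sums of 487 to 821 RPKM and 3735 to 4607 RPKM in the same order. All 5 T cell markers fell (median -1.35, sums 41.3 to 67.4 with tamoxifen and 103.9 to 119 with vehicle). So did 4 of 4 fibroblast markers (median -1.70, sums 1218 to 2919 and 3387 to 6875) and 4 of 4 endothelial markers (median -0.92, sums 25.0 to 29.8 and 52.5 to 57.5). Neutrophil markers fell in 3 of 5 (median -1.27, sums 10.99 to 31.6 and 66.9 to 101.5). Of 4 keratinocyte markers, Krt1 (-2.37) and Krt10 (-1.62) fell. The part of these cells in the result was not tested.

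Between the wounded sets 18 of the 47 members differed, 15 higher in set A than in set B and 3 lower. Over all genes tested 31.1% were called, 15.6% higher and 15.5% lower. The share of members called lay near that of all genes, while their directions were uneven, and the members' median was 0.48. The 15 were Ccl8, Cxcl10, Ccl21a, Ccl12, Ccl21b, Cxcl11, Ccl17, Cxcr3, Ccl22, Ccr6, Cxcl9, Ccr2, Ccl11, Xcr1 and Ackr1. Lower in set A were Cxcl14, Ccl27a and Ccr4, a count that was 1 without replicate 1, 2 or 4 of set B. At least 2-fold differences were called for 9 members, with 4.74% of all genes, and the sets did not overlap for 17 members, with 28.3% of all genes. All 6 dendritic and Langerhans cell markers were higher in set A (median 1.32, sums 1745 to 2868 RPKM in set A and 630 to 1086 in set B), as were 4 of 5 T cell markers (median 0.87, sums 78.0 to 118 and 71.2 to 91.1). Of 7 macrophage and monocyte markers 3 were higher (median 0.57, sums 1153 to 2738 and 975 to 1416), as were 3 of 4 endothelial (median 0.43, sums 77.3 to 103.6 and 60.4 to 70.8), 2 of 4 fibroblast (median 0.69, sums 2853 to 5265 and 2047 to 2897) and 2 of 5 neutrophil markers (median 0.65). Krt1 and Krt10, 2 of the 4 keratinocyte markers, were also higher in set A. The part of these cells in the result was not tested.

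Replicate numbers of the sample records were treated as a possible pairing of sets A and B, since all same-numbered libraries deviated together. Libraries of different number were not compared, so whether the numbers pair these sets is not established. With the number as a block the calls of Ackr1 (adjusted p = 0.0701) and Ccr4 (0.0512) were lost and Ccr8 was called (0.0417). With only the wounded sets in the blocked fit, an alternative added after seeing the data, Ackr1 (0.208) and Ccr4 (0.109) were again lost, and Ccl3 (0.0276) and Ccl9 (0.0479) were called as higher in set A. That fit tested 41 members. Cxcl11, Ccr6 and Xcr1, called in the main fit, did not pass the filter without the unwounded libraries and could not be tested there.

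**Figure D2:**
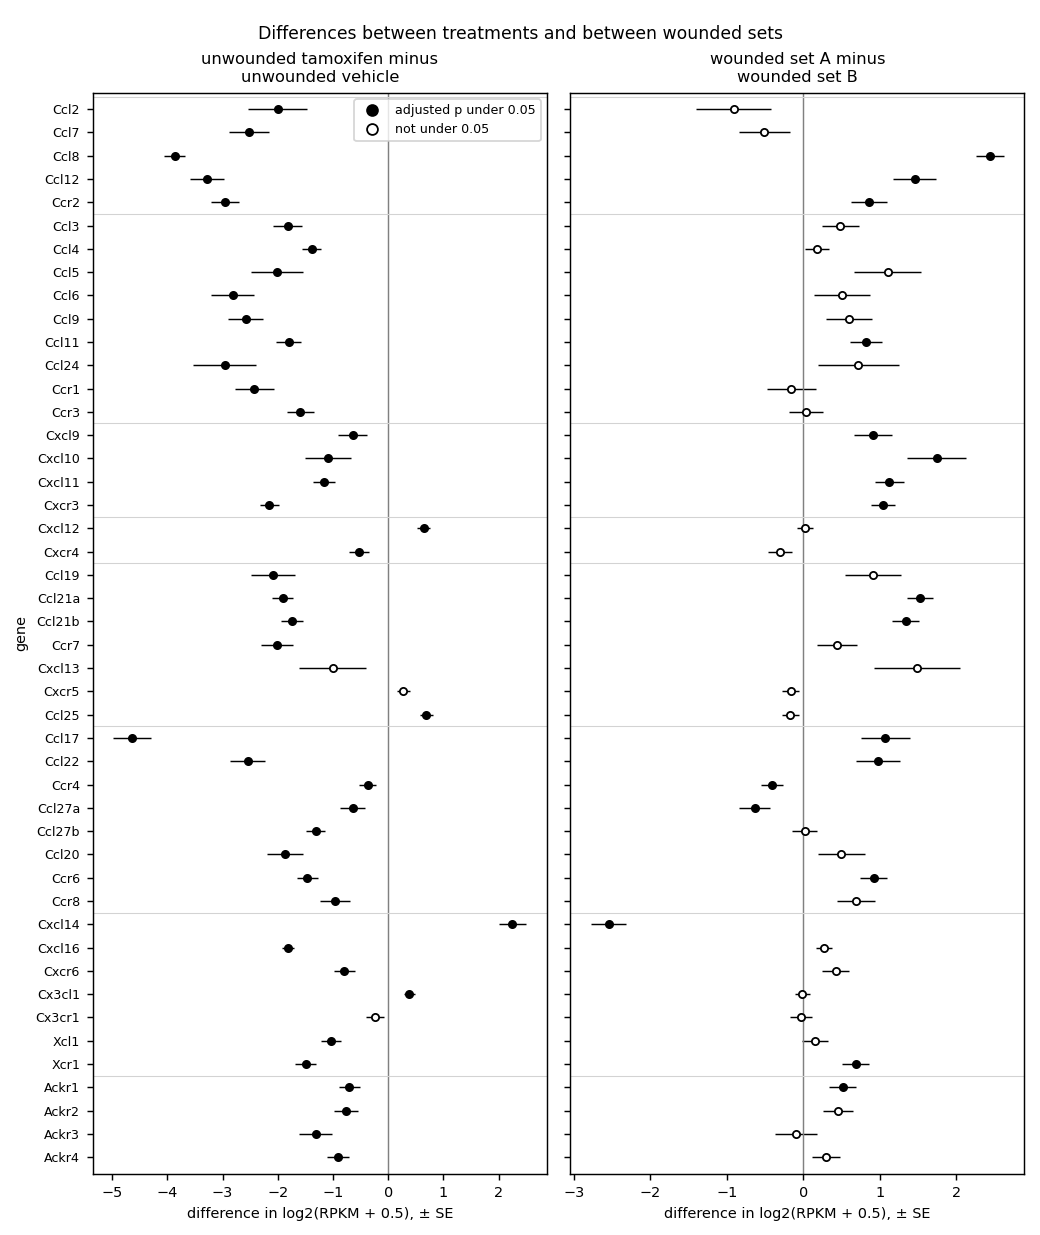
Differences in log2(RPKM + 0.5) with limma's standard error for 46 of the members tested, ordered by role, for unwounded tamoxifen minus unwounded vehicle skin (left) and wounded set A minus set B (right). Filled points have an adjusted p under 0.05, and most lie below 0 on the left and above 0 on the right, with Cxcl14 opposite in both panels.

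Wounded against unwounded skin, averaged over both groups of each, does not depend on the disputed names. A difference with wounding is given below as this average, and a member called in it need not differ from each unwounded group. Here 20 of 47 members rose and 13 fell, with 56.4% of all genes called, 26.9% higher and 29.5% lower. The largest rises were those of Ccl3 and Ccl4, at 4.51 ± 0.18 and 4.41 ± 0.11. At least 2-fold differences were called for 22 members, with 7.24% of all genes. For 8 of 47 members all 8 wounded libraries lay on one side of all 7 unwounded ones, and for 9.68% of all genes tested. The monocyte group (Ccl2, Ccl7, Ccl12, Ccr2 and, though in mouse it acts through CCR8, Ccl8) rose in 5 of 5 members in this average. It did so in both sets against unwounded tamoxifen skin as well. Against unwounded vehicle skin this group had 1 of 5 higher in set A, namely Ccl8 (group median 0.52). In set B it had 1 higher and 3 lower (group median -0.64). Of 8 skin and epithelial homing genes 3 fell in the average and none rose. Against unwounded vehicle skin 5 fell in set A and 8 in set B, and against unwounded tamoxifen skin 5 rose and 2 fell in set A and 3 rose in set B. Neutrophil markers rose in 5 of 5 (median 4.04), with sums of 1393 to 3199 RPKM in set A, 899.9 to 1574 in set B, 10.99 to 31.6 in unwounded tamoxifen skin, where Ly6g was at 0 in every library, and 66.9 to 101.5 in unwounded vehicle skin. Neutrophil markers rose in 5 of 5 against each unwounded group as well. Macrophage and monocyte markers rose in 7 of 7 in the average (median 1.30) and in both sets against unwounded tamoxifen skin. Against unwounded vehicle skin 1 of 7 was higher in set A (median 0.13), and none was higher and 3 were lower in set B (median -0.63). The part of these cells in the result was not tested.

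Each wounded set was also set against each unwounded group, and these comparisons share libraries, so their counts are not independent of each other. By the sample records' names, set A against unwounded tamoxifen skin had 35 members higher and 6 lower (65.4% of all genes called, 31.3% higher and 34.1% lower), and set B against unwounded vehicle skin had 9 higher and 24 lower (59.2%, 30.7% higher and 28.6% lower). By the gene tables' names, set B against unwounded tamoxifen skin had 24 higher and 6 lower (54.8%, 25.9% higher and 28.9% lower), and set A against unwounded vehicle skin had 14 higher and 15 lower (39.8%, 20.4% higher and 19.4% lower). The libraries did not overlap for 40, 33, 32 and 24 members in these 4 comparisons as listed, with 59.1%, 61.1%, 58.0% and 35.8% of all genes. Under either naming, wounded against unwounded tamoxifen skin had more members higher than lower, and wounded against unwounded vehicle skin did not. Members that rose in all 4 comparisons included Ccl3, Ccl4, Ccr1, Cx3cr1, Cxcl12 and Cxcr4, and 1 member fell in all 4, Ackr4. Of all genes tested, 6.42% rose and 4.63% fell in all 4. Some of these calls were lost without 1 library. For set A against unwounded vehicle skin those were Ccr1 without replicate 3 of set A (adjusted p = 0.0576) or vehicle replicate 1 (0.0506) or 2 (0.0575), and Cx3cr1 without replicate 1 (0.0544) or 2 (0.0573) of set A or vehicle replicate 3 (0.0587). Ackr4 lost its call in set A against unwounded tamoxifen skin without replicate 2 (0.0605) or 3 (0.0678) of set A or tamoxifen replicate 2 (0.0925).

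**Figure D3:**
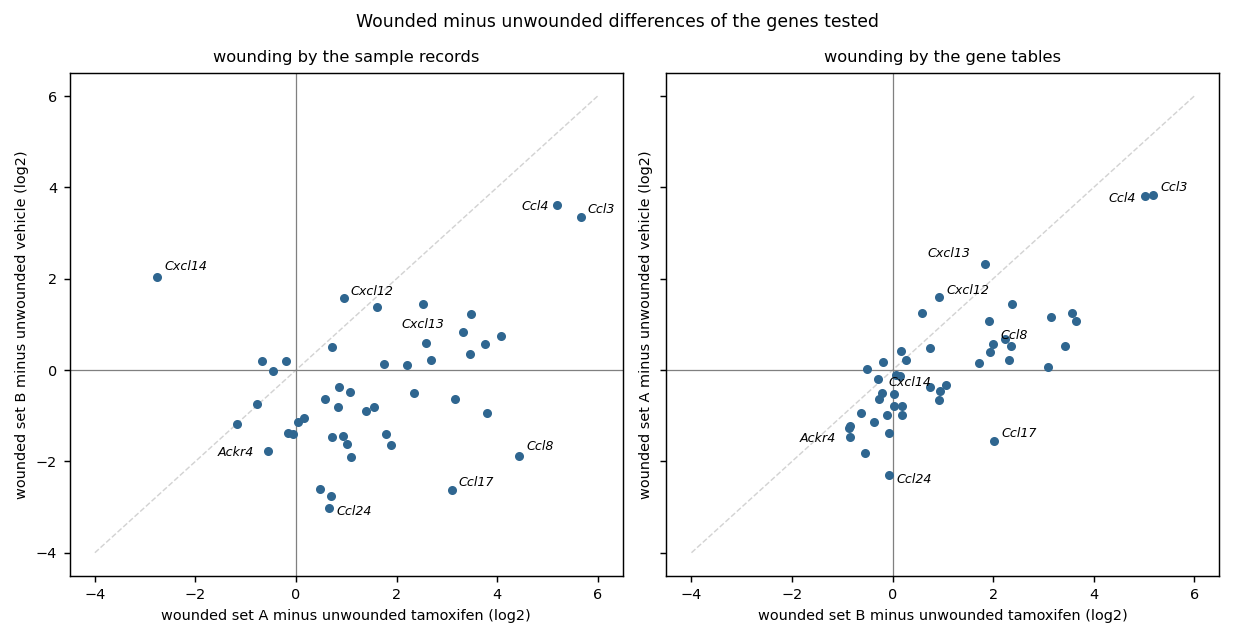
Wounded minus unwounded differences (log2) of 46 of the members tested, with the tamoxifen arm on the horizontal and the vehicle arm on the vertical axis, under the sample records' names (left) and the gene tables' names (right). Ccl3 and Ccl4 lie at the upper right in both panels, and Ccl8 and Cxcl14 change place between them.

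Sequences just upstream of the genes with the largest differences between the wounded sets, Ccl8 and Cxcl10 (higher in set A) and Cxcl14 (lower), are shown as the 250 bases before the RefSeq start of transcription (GRCm38.p6, the same build as mm10). Capitals mark matches, on either strand, to 4 motifs searched by script, namely TATAAA (a core promoter element), TTCNNNGAA (STAT), a repeat of GAAA after any pair of bases (interferon response), and a GGG set any pair of bases before TTTCC (kappaB).
Ccl8, chr11:82114935-82115184, plus strand: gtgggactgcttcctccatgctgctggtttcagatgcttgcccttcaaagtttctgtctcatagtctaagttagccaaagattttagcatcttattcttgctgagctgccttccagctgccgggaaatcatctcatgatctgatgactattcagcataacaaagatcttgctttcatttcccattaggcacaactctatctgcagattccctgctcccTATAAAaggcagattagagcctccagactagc
Cxcl10, chr5:92348890-92349139, minus strand: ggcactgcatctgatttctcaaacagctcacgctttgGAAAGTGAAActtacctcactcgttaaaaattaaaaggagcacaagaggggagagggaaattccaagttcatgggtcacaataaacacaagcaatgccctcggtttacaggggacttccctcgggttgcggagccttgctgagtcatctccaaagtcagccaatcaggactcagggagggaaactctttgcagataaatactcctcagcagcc
Cxcl14, chr13:56296552-56296801, minus strand: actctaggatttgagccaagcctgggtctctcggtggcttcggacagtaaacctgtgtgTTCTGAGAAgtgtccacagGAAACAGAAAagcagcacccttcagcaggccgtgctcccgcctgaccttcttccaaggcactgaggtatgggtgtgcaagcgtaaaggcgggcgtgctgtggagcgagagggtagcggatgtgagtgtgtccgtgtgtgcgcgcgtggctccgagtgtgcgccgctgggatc
The Ccl8 sequence holds a core promoter match that begins 32 bases before the start. In Cxcl10, whose product is known as interferon-induced, an interferon response match begins 213 bases before it. Cxcl14 holds an interferon response match at 172 and a STAT match at 191 bases before the start, and these do not overlap. Of 32851 RefSeq promoters of this length, 12.4% held the core promoter letters, 2.98% the interferon response, 7.02% the STAT and 1.41% the kappaB letters. Among the 42 members with an entry, 14, 3, 4 and 3 held them in that order in at least 1 of their promoters, 49 in all. These are counts of genes, some with several promoters, so they cannot be set directly against the percentages of promoters. The kappaB letters were in Ccl20, Ccl9 and Ccr3, and the interferon response letters also in Ccl19. A match describes the letters alone.

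Ccl2, Ccl7 and Ccl12, ligands that draw monocytes, fell with tamoxifen in unwounded skin, as did the monocyte receptor Ccr2. Ccl8, counted with them here though in mouse it acts through CCR8, fell as well, so the group fell in 5 of 5. In the average over groups 5 of 5 rose with wounding, but against unwounded vehicle skin Ccl8 alone was higher in set A, and in set B Ccl2 was higher and Ccl8, Ccl12 and Ccr2 were lower. Ccl8 lies on the plus strand of chromosome 11 (82115185 to 82116799 in GENCODE M21). Its wounded values were 1570.2, 1427, 1466 and 1413 RPKM in the libraries of set A and 388, 239.9, 226 and 253 in those of set B. Unwounded values were 65.2, 51.6 and 90.5 RPKM with tamoxifen and 1219.5, 875, 986 and 920.3 with vehicle. No group overlapped another, with replicate 1 highest in set A, set B and vehicle skin. Ccl8 differed by -3.87 ± 0.20 with tamoxifen in unwounded skin (adjusted p = 8.9e-09) and by 2.44 ± 0.18 between sets A and B (2.35e-06). Against unwounded vehicle skin set A was higher (0.57 ± 0.18, adjusted p = 0.0237), a call lost without replicate 1 of set A (0.0558) or vehicle replicate 2 (0.0638) or 4 (0.0609), and set B was lower (-1.87 ± 0.18, adjusted p = 1.87e-06). Both sets exceeded unwounded tamoxifen skin (4.44 ± 0.20 for set A and 1.997 ± 0.20 for set B).

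Ccl12, in mouse a ligand of CCR2, had 23.5, 16.3, 29.3 and 17.4 RPKM across set A, 10.2, 8.91, 5.97 and 5.33 across set B, and, in unwounded skin, 0.701, 1.24 and 1.26 with tamoxifen and 10.6, 9.702, 20.2 and 21.1 with vehicle. The wounded sets did not overlap, and unwounded tamoxifen skin lay below every other library. Its differences were -3.28 ± 0.31 with tamoxifen (6.87e-07), 1.46 ± 0.28 between sets A and B (0.00177) and 1.43 ± 0.21 with wounding (6.22e-05). Set B was lower than unwounded vehicle skin (-0.94 ± 0.28, adjusted p = 0.0116), while set A differed from it by 0.52 ± 0.28 (0.165). Ccr2, the receptor that lets monocytes leave the marrow, had 62.2, 38.4, 52.2 and 33.2 RPKM across set A, 29.1, 28.8, 19.03 and 23.3 across set B, and, in unwounded skin, 3.72, 7.59 and 3.32 with tamoxifen and 39.7, 36.9, 40.9 and 37.5 with vehicle. Set A and vehicle skin overlapped, set B was below both, and unwounded tamoxifen skin was lowest. The tamoxifen difference was -2.95 ± 0.25, adjusted p = 3.28e-07, and that between sets A and B 0.86 ± 0.23, adjusted p = 0.0134. Set B was lower than unwounded vehicle skin (-0.64 ± 0.23, adjusted p = 0.0300), a call lost without any 1 of 5 libraries (0.0504 to 0.0923).

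Ccl2, the main CCR2 ligand in many tissues, had 28.1, 9.38, 40.8 and 5.83 RPKM across set A, 29.7, 39.8, 28.3 and 26.03 across set B, and, in unwounded skin, 1.17, 4.25 and 2.48 with tamoxifen and 8.38, 9.72, 12.6 and 14.1 with vehicle. In set A replicates 1 and 3 were far above replicates 2 and 4, and set B lay within that span. Ccl2 fell with tamoxifen in unwounded skin (-2.001 ± 0.53, adjusted p = 0.00418) and rose with wounding (1.98 ± 0.36, adjusted p = 0.000403), while sets A and B differed by -0.91 ± 0.49 (0.177), and by -1.35 with adjusted p = 0.0395 without replicate 3 of set A. In set B it exceeded unwounded vehicle skin (1.44 ± 0.49, adjusted p = 0.0218), a call lost without replicate 2 of set B (0.0579) or vehicle replicate 1 (0.0567). Ccl7, which acts on CCR2 and other receptors, had 26.1, 12.996, 41.8 and 12.99 RPKM across set A, 28.1, 33.6, 30.7 and 27.1 across set B, and, in unwounded skin, 2.21, 5.73 and 2.12 with tamoxifen and 18.3, 18.4, 21.8 and 20.6 with vehicle. As for Ccl2, replicates 1 and 3 of set A were the higher ones, and unwounded tamoxifen libraries were below all others. Ccl7 differed by -2.52 ± 0.36 with tamoxifen (3.51e-05) and by 1.59 ± 0.25 with wounding in the average (0.000115). Against unwounded vehicle skin Ccl7 was called in neither wounded set. Sets A and B differed by -0.51 ± 0.34 (0.276), and by -0.84 with adjusted p = 0.0479 without replicate 3 of set A.

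**Figure D4:**
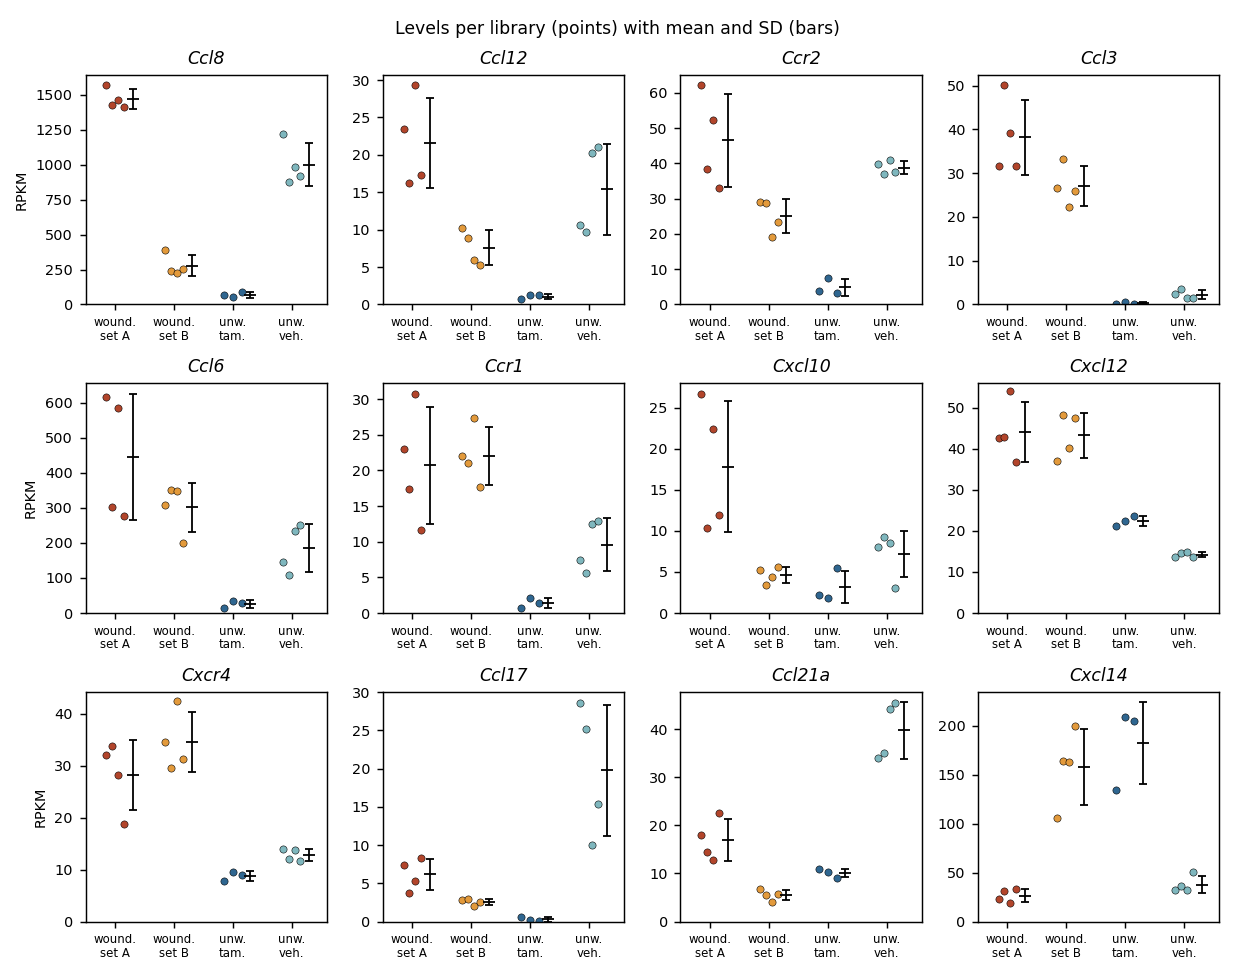
RPKM per library (points) with mean and SD (bars) for 12 members in wounded set A, wounded set B, unwounded tamoxifen and unwounded vehicle skin, each panel on its own linear axis from 0. Ccl3 and Cxcr4 are high in both wounded sets, and Ccl8 and Cxcl14 separate set A from set B in opposite directions.

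Ccl3 and Ccl4, inflammatory ligands made by activated macrophages and neutrophils, were high in all 8 wounded libraries. Ccl3 had 31.7, 50.05, 39.2 and 31.7 RPKM across set A, 26.5, 33.3, 22.4 and 25.9 across set B, and, in unwounded skin, 0.0892, 0.560 and 0.176 with tamoxifen and 2.42, 3.62, 1.53 and 1.55 with vehicle. Sets A and B overlapped, no wounded library overlapped an unwounded one, and unwounded tamoxifen skin was below vehicle skin. It rose with wounding by 4.51 ± 0.18 (5.32e-10) and fell with tamoxifen in unwounded skin (-1.82 ± 0.26, adjusted p = 3.18e-05), while sets A and B differed by 0.48 ± 0.24 (0.149). Ccl4 had 18.6, 29.98, 19.3 and 21.3 RPKM across set A, 17.2, 21.9, 18.7 and 19.3 across set B, and, in unwounded skin, 0.0712, 0.201 and 0.0703 with tamoxifen and 1.23, 1.44, 1.04 and 0.758 with vehicle. Replicate 2 was highest in both sets, and wounded and unwounded libraries did not overlap. The wounding difference was 4.41 ± 0.11, adjusted p = 2.03e-11, and the tamoxifen difference was -1.39 ± 0.17, adjusted p = 6.95e-06.

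Ccl5, a further inflammatory ligand that T cells make, had 22.4, 8.597, 10.7 and 5.92 RPKM across set A, 5.58, 5.73, 1.95 and 7.09 across set B, and, in unwounded skin, 0.265, 0.583 and 0.699 with tamoxifen and 2.87, 7.59, 2.99 and 2.26 with vehicle. Replicate 2 of vehicle skin was far above the others of its group, and sets A and B overlapped. Ccl5 fell with tamoxifen (-2.01 ± 0.47, adjusted p = 0.00168) and rose with wounding (1.91 ± 0.32, adjusted p = 0.000194). Between sets A and B it differed by 1.102 ± 0.43 (0.0690), and was called without replicate 4 of set A (0.0295) or vehicle replicate 2 (0.0464). Against unwounded vehicle skin set A was higher (1.46 ± 0.43, adjusted p = 0.0163), but not without replicate 1 of set A (0.0513) or vehicle replicate 4 (0.0523).

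Ccl6 and Ccl9, CCR1 ligands of rodents made by myeloid cells, were abundant. Ccl6 had 617, 301, 585 and 278 RPKM across set A, 307, 352, 347 and 199.8 across set B, and, in unwounded skin, 13.7, 35.1 and 29.7 with tamoxifen and 146, 109, 236 and 252 with vehicle. Replicates 1 and 3 stood above 2 and 4 in set A, the sets overlapped, and unwounded tamoxifen skin was lowest. Ccl6 fell with tamoxifen (-2.82 ± 0.39, adjusted p = 2.45e-05) and rose with wounding (2.41 ± 0.27, adjusted p = 5.72e-06), while sets A and B differed by 0.502 ± 0.36 (0.320). Ccl9 had 185, 107, 194 and 91.02 RPKM across set A, 98.6, 101, 98.4 and 66.95 across set B, and, in unwounded skin, 6.18, 13.5 and 10.7 with tamoxifen and 56.8, 38.9, 73.3 and 82.4 with vehicle. Replicates 1 and 3 were again the higher ones in set A, replicate 4 of set B lay below the other 3 of its set, and unwounded tamoxifen skin was lowest. Its differences were -2.59 ± 0.32 with tamoxifen (9.74e-06), 2.16 ± 0.22 with wounding (2.76e-06) and 0.601 ± 0.30 between sets A and B (0.147).

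Ccr1, a receptor of neutrophils and monocytes for Ccl3, Ccl5, Ccl6 and Ccl9, had 23.1, 17.3, 30.8 and 11.7 RPKM across set A, 22.1, 21.1, 27.4 and 17.6 across set B, and, in unwounded skin, 0.689, 2.08 and 1.34 with tamoxifen and 7.404, 5.55, 12.5 and 12.9 with vehicle. Sets A and B overlapped, and unwounded tamoxifen skin was below every other library. It rose with wounding (2.36 ± 0.24, adjusted p = 2.42e-06) and fell with tamoxifen (-2.43 ± 0.35, adjusted p = 3.26e-05).

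The eosinophil axis of the ligands Ccl11 and Ccl24 and the receptor Ccr3 fell with tamoxifen in 3 of 3. Ccl24 had 6.44, 1.93, 4.91 and 2.36 RPKM across set A, 2.299, 2.78, 1.71 and 1.25 across set B, and, in unwounded skin, 1.15, 1.46 and 4.66 with tamoxifen and 15.5, 7.25, 23.2 and 52.9 with vehicle. Vehicle skin held the 4 highest values, spread between 7.25 and 52.9 RPKM. It was lower with tamoxifen (-2.96 ± 0.58, adjusted p = 0.000430) and lower in set A (-2.31 ± 0.53, adjusted p = 0.00378) and set B (-3.03 ± 0.53, adjusted p = 0.000268) than in unwounded vehicle skin. The fall over both wounded sets (-1.19 ± 0.39, adjusted p = 0.0193) was lost without tamoxifen replicate 4 (0.0624). Ccl11 averaged 28.6 ± 3.37 RPKM in set A, 16.3 ± 4.28 in set B, 13.99 ± 1.96 in unwounded tamoxifen and 51.4 ± 15.2 in unwounded vehicle skin (SD). The gene fell with tamoxifen (-1.801 ± 0.22, adjusted p = 9.19e-06) and was higher in set A than in set B (0.82 ± 0.21, adjusted p = 0.00870), where the libraries did not overlap. Ccr3 averaged 2.05 ± 0.822, 1.89 ± 0.365, 0.224 ± 0.0676 and 1.72 ± 0.470 RPKM in those groups and fell with tamoxifen (-1.59 ± 0.24, adjusted p = 5.58e-05), while sets A and B differed by 0.03 ± 0.23 (0.926).

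The CXCR3 axis, through which interferon-induced ligands draw activated T cells, was higher in set A than in set B in 4 of 4 members. Of these, Cxcl11 passed the filter on low values only through libraries of set A and unwounded vehicle skin, which favours its call. Cxcl10 had 26.7, 10.3, 22.4 and 11.9 RPKM across set A, 5.18, 3.38, 4.44 and 5.61 across set B, and, in unwounded skin, 2.22, 1.85 and 5.46 with tamoxifen and 7.99, 9.21, 8.57 and 3.06 with vehicle. Every set A library exceeded every set B library, with replicates 1 and 3 highest, and unwounded groups overlapped. Cxcl10 differed by 1.74 ± 0.38 between sets A and B (0.00386). In unwounded skin it fell with tamoxifen (-1.09 ± 0.41, adjusted p = 0.0303), but this was lost without tamoxifen replicate 2 (0.101) or 3 (0.132) or vehicle replicate 1 (0.0666), 2 (0.0762) or 3 (0.0725). Set A also exceeded unwounded vehicle skin (1.24 ± 0.38, adjusted p = 0.0197), a call lost without replicate 1 (0.0624) or 3 (0.0563) of set A or vehicle replicate 4 (0.0637).

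Cxcl9 had 3.57, 1.93, 3.15 and 1.82 RPKM across set A, 1.44, 1.26, 0.737 and 1.102 across set B, and, in unwounded skin, 1.405, 0.492 and 1.1001 with tamoxifen and 1.34, 2.69, 1.78 and 1.44 with vehicle. The wounded sets did not overlap and the unwounded groups did. Set A exceeded set B (0.91 ± 0.25, adjusted p = 0.0133). The fall with tamoxifen (-0.64 ± 0.27, adjusted p = 0.0453) was lost without tamoxifen replicate 3 (0.244) or 4 (0.0612), vehicle replicate 2 (0.129) or 3 (0.0756), or set B replicate 2 (0.0544) or 4 (0.0552). It was also lost with a pseudocount of 1 (0.0516), without the filter on low values (0.0688) and with only the unwounded groups in the fit (0.0583). Cxcl11 had 1.24, 0.671, 1.58 and 0.673 RPKM across set A, 0.213, 0.205, 0.186 and 0.135 across set B, and, in unwounded skin, 0.117, 0.0413 and 0.0579 with tamoxifen and 0.588, 1.11, 0.956 and 0.537 with vehicle. GENCODE M21 lists it as a polymorphic pseudogene, since some mouse strains carry a disrupted copy. Neither the wounded sets nor the unwounded groups overlapped, and it differed by 1.12 ± 0.19 between sets A and B (0.000635) and -1.16 ± 0.20 with tamoxifen (0.000184). Cxcl11 reached the minimum of the filter only in libraries of set A and unwounded vehicle skin, which favours both calls. Cxcl10 and Cxcl11 overlap the gene Art3 on the opposite strand, and whether reads were counted by strand is not known. The receptor Cxcr3 had 3.74, 2.63, 2.72 and 4.34 RPKM across set A, 1.79, 1.61, 0.852 and 1.26 across set B, and, in unwounded skin, 0.569, 0.563 and 0.663 with tamoxifen and 4.07, 4.28, 4.77 and 4.405 with vehicle. Set A exceeded set B in every library (1.04 ± 0.16, adjusted p = 0.000387), and unwounded tamoxifen skin was below unwounded vehicle skin in every library (-2.15 ± 0.17, adjusted p = 2.11e-07).

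In the CXCL12 axis, which holds stem cells and leukocytes in tissue, both ligand and receptor rose with wounding in all 4 comparisons of a wounded set with an unwounded group. Cxcl12 had 42.7, 42.9, 53.9 and 36.7 RPKM across set A, 37.1, 48.1, 40.3 and 47.6 across set B, and, in unwounded skin, 21.2, 22.3 and 23.6 with tamoxifen and 13.7, 14.6, 14.7 and 13.7 with vehicle. Wounded libraries all exceeded unwounded ones, sets A and B overlapped, and tamoxifen libraries exceeded vehicle ones in unwounded skin. It differed by 1.26 ± 0.08 with wounding (3.37e-08), by 0.64 ± 0.12 with tamoxifen (0.000227) and by 0.02 ± 0.11 between sets A and B (0.909). Its receptor Cxcr4 had 32.1, 33.8, 28.2 and 18.7 RPKM across set A, 34.6, 29.5, 42.5 and 31.3 across set B, and, in unwounded skin, 7.73, 9.58 and 8.96 with tamoxifen and 13.9, 12.1, 13.7 and 11.6 with vehicle. Wounded and unwounded libraries did not overlap, and tamoxifen libraries were below vehicle ones in unwounded skin, opposite to the ligand. Cxcr4 rose with wounding (1.49 ± 0.12, adjusted p = 3.3e-07) and fell with tamoxifen (-0.53 ± 0.17, adjusted p = 0.0153), a call lost without tamoxifen replicate 2 (0.0639). Ackr3, an atypical receptor that takes up CXCL12, had 33.2, 18.7, 46.3 and 20.5 RPKM across set A, 26.7, 32.96, 41.8 and 21.1 across set B, and, in unwounded skin, 14.3, 14.8 and 16.4 with tamoxifen and 31.1, 29.8, 44.7 and 51.6 with vehicle. Unwounded tamoxifen skin was below every other library, and the fall against vehicle was -1.31 ± 0.30, adjusted p = 0.00154. Wounding gave 0.25 ± 0.21 (0.323), and sets A and B overlapped (-0.097 ± 0.28, adjusted p = 0.824).

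Among genes of homing to lymphoid tissue, Ccl21a, which lymphatic endothelium makes to guide dendritic cells through CCR7, was highest in unwounded vehicle skin. It had 18.04, 14.5, 12.8 and 22.6 RPKM across set A, 6.84, 5.501, 4.07 and 5.66 across set B, and, in unwounded skin, 10.9, 10.4 and 9.16 with tamoxifen and 34.1, 35.1, 44.3 and 45.6 with vehicle. No group overlapped another, in the order vehicle skin, set A, unwounded tamoxifen skin and set B. Ccl21a differed by -1.91 ± 0.19 with tamoxifen (1.02e-06), 1.53 ± 0.17 between sets A and B (5.25e-05) and -1.03 ± 0.13 with wounding (1.46e-05). Ccl21b stood at 11.7 to 22.4% and Ccl21c at 1.41 to 2.69% of Ccl21a in every library. These are near-identical copies among which reads may have been split, so the copies' own values are uncertain. Lymphatic endothelial markers that passed the filter fell with tamoxifen in 3 of 3 (median -0.61), and the sum of all 4 was 22.3 to 27.0 RPKM with tamoxifen and 51.8 to 108 with vehicle. Their part in the result was not tested.

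Ccl19, the other CCR7 ligand, had 5.14, 7.95, 5.28 and 16.2 RPKM across set A, 6.004, 3.35, 3.73 and 2.96 across set B, and, in unwounded skin, 5.205, 2.41 and 2.95 with tamoxifen and 19.8, 25.2, 10.4 and 12.03 with vehicle. Unwounded groups did not overlap, and replicate 4 of set A was far above the other wounded libraries. It fell with tamoxifen (-2.08 ± 0.39, adjusted p = 0.000351), and sets A and B differed by 0.91 ± 0.37 (0.0742), or adjusted p = 0.0455 without replicate 1 of set B. Ccr7 had 6.19, 4.26, 4.43 and 4.03 RPKM across set A, 3.396, 4.08, 2.66 and 3.17 across set B, and, in unwounded skin, 0.214, 0.381 and 0.317 with tamoxifen and 3.205, 5.41, 2.03 and 1.47 with vehicle. Unwounded tamoxifen skin was below every other library, and the other groups overlapped. Ccr7 fell with tamoxifen (-2.01 ± 0.28, adjusted p = 2.79e-05) and rose with wounding in the average (1.46 ± 0.19, adjusted p = 2.76e-05). Against unwounded vehicle skin Ccr7 was called in neither wounded set. Without vehicle replicate 2 it was called in both (adjusted p = 0.00261 for set A and 0.0407 for set B). Ackr4, an atypical receptor that removes CCL19 and CCL21, had 9.504, 6.57, 6.14 and 10.4 RPKM across set A, 7.94, 6.34, 5.58 and 5.89 across set B, and, in unwounded skin, 13.8, 11.004 and 11.1 with tamoxifen and 20.3, 18.01, 26.4 and 28.3 with vehicle. All wounded libraries were below all unwounded ones, and unwounded tamoxifen libraries below vehicle ones. It differed by -1.16 ± 0.13 with wounding (7.44e-06) and -0.91 ± 0.19 with tamoxifen (0.000892), and sets A and B by 0.298 ± 0.18 (0.231).

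Cxcl13, the B cell chemokine, had 60.3, 24.4, 54.3 and 31.01 RPKM across set A, 8.66, 26.3, 8.04 and 20.01 across set B, and, in unwounded skin, 1.07, 4.93 and 7.07 with tamoxifen and 5.202, 3.45, 13.1 and 13.1 with vehicle. Replicates 1 and 3 were highest in set A and replicates 2 and 4 in set B, and the sets overlapped. Cxcl13 rose with wounding (2.08 ± 0.41, adjusted p = 0.000766), while the differences with tamoxifen (-1.003 ± 0.61, adjusted p = 0.155) and between sets A and B (1.48 ± 0.56, adjusted p = 0.0599) did not pass. The difference between the sets was called with a pseudocount of 1 (0.0487), with only the wounded sets in the fit (0.0408), and without set A replicate 2 (0.0473), set B replicate 2 (0.0445) or tamoxifen replicate 2 (0.0322). Against unwounded vehicle skin Cxcl13 was called higher in set A and not called in set B. Its receptor Cxcr5 averaged 1.57 ± 0.197 RPKM in set A, 1.82 ± 0.232 in set B, 2.36 ± 0.410 with tamoxifen and 1.86 ± 0.260 with vehicle in unwounded skin. Its tamoxifen difference of 0.27 ± 0.12 missed the threshold (0.0594) and passed it with median-of-ratios scaling (0.0443) or without replicate 3 of set A (0.0476), tamoxifen replicate 3 (0.0461) or vehicle replicate 3 (0.048) or 4 (0.0441). Ccl25, a ligand of homing to thymus and gut, averaged 1.92 ± 0.483 RPKM with tamoxifen and 0.979 ± 0.113 with vehicle in unwounded skin and rose with tamoxifen (0.69 ± 0.12, adjusted p = 0.000219). Ccl25 overlaps Elavl1, and Cxcr5 overlaps Bcl9l, on the opposite strand.

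Ccl17 and Ccl22, which dendritic cells make and which draw CCR4-bearing T cells into skin, fell with tamoxifen. Ccl17 had 7.33, 3.77, 5.301 and 8.28 RPKM across set A, 2.82, 2.98, 2.01 and 2.49 across set B, and, in unwounded skin, 0.594, 0.215 and 0.0451 with tamoxifen and 28.6, 25.1, 10.1 and 15.3 with vehicle. Unwounded tamoxifen libraries were all under 1 RPKM, no group overlapped another, and the order from the top was vehicle skin, set A, set B and unwounded tamoxifen skin. The gene fell with tamoxifen in unwounded skin (-4.64 ± 0.34, adjusted p = 9.74e-08), the largest fall among the members. Set A exceeded set B (1.07 ± 0.31, adjusted p = 0.0192), a call lost without replicate 1 of set A (0.0576) or replicate 3 of set B (0.0537), and with a pseudocount of 0.1 (0.0503). Against unwounded vehicle skin both set A (-1.55 ± 0.31, adjusted p = 0.00162) and set B (-2.62 ± 0.31, adjusted p = 1.11e-05) were lower.

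Ccl22 had 16.2, 10.3, 11.7 and 13.7 RPKM across set A, 7.26, 9.18, 4.52 and 5.03 across set B, and, in unwounded skin, 2.26, 3.08 and 4.18 with tamoxifen and 28.5, 30.98, 12.9 and 15.2 with vehicle. The wounded sets did not overlap, nor did the unwounded groups. It fell with tamoxifen (-2.55 ± 0.31, adjusted p = 7.83e-06) and was higher in set A than in set B (0.98 ± 0.29, adjusted p = 0.0203), but not without set A replicate 1 (0.0633) or set B replicate 3 (0.0624) or 4 (0.0635). Their receptor Ccr4 went the other way between the wounded sets, with 1.003, 1.24, 0.582 and 1.003 RPKM in the libraries of set A and 1.48, 1.31, 1.52 and 1.32 in those of set B. In unwounded skin it had 2.38, 1.84 and 1.71 RPKM with tamoxifen and 2.096, 2.87, 2.62 and 3.22 with vehicle. All set A libraries were below all set B libraries, and the unwounded groups overlapped. Neither its fall with tamoxifen in unwounded skin (-0.37 ± 0.15, adjusted p = 0.0472) nor that in set A against set B (-0.41 ± 0.14, adjusted p = 0.0450) held when single libraries were left out. The tamoxifen call was lost without any 1 of 11 libraries, wounded ones among them (0.0520 to 0.165). That between the sets was lost without any 1 of 10 libraries, unwounded ones among them (0.0502 to 0.130). The tamoxifen call was also lost with a pseudocount of 0.1 (0.0723) and without the filter (0.0673), and the call between the sets with a pseudocount of 1 (0.0535), without the filter (0.0665) and with only the 2 sets in the fit (0.0700). The fall with wounding was -0.76 ± 0.11, adjusted p = 4.27e-05.

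Ccl27a, a chemokine of basal keratinocytes that draws CCR10-bearing T cells, had 13.9, 7.93, 9.82 and 15.4 RPKM across set A, 20.1, 18.3, 13.6 and 20.7 across set B, and, in unwounded skin, 20.7, 25.6 and 34.9 with tamoxifen and 42.2, 41.3, 35.2 and 48.2 with vehicle. Vehicle skin was highest and unwounded tamoxifen skin did not overlap it. Ccl27a fell with wounding (-1.18 ± 0.15, adjusted p = 2.11e-05). The fall with tamoxifen (-0.64 ± 0.22, adjusted p = 0.0202) was lost without tamoxifen replicate 2 (0.105) or 3 (0.0556) or vehicle replicate 4 (0.0532). It was also lower in set A than in set B (-0.64 ± 0.21, adjusted p = 0.0316), which was lost without set A replicate 2 (0.0871) or 3 (0.0832) or set B replicate 1 (0.0715), 2 (0.0687) or 4 (0.0905), without the filter (0.0514) and with only the 2 sets in the fit (0.0640). Sets A and B overlapped. The near-identical copy Ccl27b stood at 3.03 to 7.36% of Ccl27a and is uncertain for the same reason as the Ccl21 copies. Ccl27a also overlaps Il11ra1 on the opposite strand. The receptor Ccr10 was at 0.0472 to 0.488 RPKM and Ccl28, its other ligand, at 0.0428 to 0.483 RPKM over all libraries. Neither passed the filter on low values.

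Ccl20, which keratinocytes make and which draws CCR6-bearing dendritic and T cells, had 4.72, 9.28, 4.02 and 11.8 RPKM across set A, 3.29, 5.59, 4.53 and 5.68 across set B, and, in unwounded skin, 1.26, 1.98 and 3.01 with tamoxifen and 11.01, 8.65, 6.85 and 8.34 with vehicle. Replicates 2 and 4 were highest in set A, and sets A and B overlapped. The gene fell with tamoxifen in unwounded skin (-1.87 ± 0.33, adjusted p = 0.000190), while wounding gave 0.37 ± 0.22 (0.177) and sets A and B differed by 0.496 ± 0.31 (0.240). Ccr6 had 0.849, 0.612, 0.877 and 1.36 RPKM across set A, 0.313, 0.236, 0.124 and 0.303 across set B, and, in unwounded skin, 0.282, 0.159 and 0.245 with tamoxifen and 1.33, 2.298, 1.23 and 1.34 with vehicle. Replicate 2 of vehicle skin was far above the rest of its group, and the wounded sets did not overlap. Ccr6 fell with tamoxifen (-1.47 ± 0.19, adjusted p = 1.12e-05) and was higher in set A than in set B (0.92 ± 0.17, adjusted p = 0.00144). Ccr6 passed the filter on low values only with the unwounded vehicle libraries, where it was high, which favours the call of a fall. Ccr8, a receptor of skin-resident T cells and in mouse that of Ccl8, averaged 0.702 ± 0.286 RPKM in set A, 0.249 ± 0.181 in set B, 0.173 ± 0.163 in unwounded tamoxifen skin and 0.833 ± 0.415 in unwounded vehicle skin. It fell with tamoxifen (-0.96 ± 0.27, adjusted p = 0.00614), and sets A and B differed by 0.68 ± 0.25 (0.0520), with a call besides the blocked fit with a pseudocount of 0.1 (0.0479) or without set A replicate 3 (0.0445), set B replicate 2 (0.0441) or tamoxifen replicate 4 (0.0491). Ccr8 passed the filter only through libraries of set A and unwounded vehicle skin, which favours calls of lower values in the other groups.

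Cxcl14 was the member with the largest rise with tamoxifen in unwounded skin and the largest fall in set A against set B. It had 23.05, 31.5, 18.6 and 33.3 RPKM in the libraries of set A and 106, 164, 163 and 199 in those of set B. Unwounded values were 134, 209 and 205 RPKM with tamoxifen and 32.1, 36.2, 32.5 and 50.4 with vehicle. Set B and unwounded tamoxifen libraries were all at 106 RPKM or more, and set A and vehicle libraries all at or under 50.4 RPKM. The tamoxifen difference was 2.25 ± 0.25, adjusted p = 3.21e-06 and that between sets A and B -2.55 ± 0.23, adjusted p = 1.38e-05. By the records' names it fell in set A against unwounded tamoxifen skin (-2.76 ± 0.25, 5e-07) and rose in set B against vehicle skin (2.04 ± 0.23, 7.29e-06). By the gene tables' names neither difference passed, at -0.22 ± 0.25 (0.481) for set B against unwounded tamoxifen skin and -0.51 ± 0.23 (0.0963) for set A against vehicle skin. Hair follicle markers moved the same way, higher with tamoxifen in 6 of 6 (median 9.90) and lower in set A than in set B in 6 of 6 (median -6.02). Their part in the result was not tested.

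Cxcl16, a ligand that can stay on the cell membrane and also binds oxidised lipoprotein, had 45.6, 39.7, 47.1 and 38.7 RPKM across set A, 37.01, 33.4, 33.6 and 36.8 across set B, and, in unwounded skin, 8.03, 9.23 and 9.11 with tamoxifen and 36.4, 37.9, 27.4 and 28.7 with vehicle. Unwounded tamoxifen libraries were below all others, and sets A and B did not overlap. The gene fell with tamoxifen (-1.82 ± 0.11, adjusted p = 2.99e-08) and rose with wounding (1.17 ± 0.08, adjusted p = 5.18e-08), while sets A and B differed by 0.27 ± 0.10 (0.0598). That difference passed in the fit of the wounded sets alone (0.0401) and without set A replicate 4 (0.0377) or vehicle replicate 2 or 3 (0.0437 each). Against unwounded vehicle skin Cxcl16 was called higher in set A and not called in set B. Its receptor Cxcr6, of resident T cells, had 1.01, 0.569, 0.751 and 1.06 RPKM across set A, 0.413, 0.606, 0.367 and 0.615 across set B, and, in unwounded skin, 0.472, 0.619 and 1.07 with tamoxifen and 1.85, 2.02, 1.18 and 1.35 with vehicle. Vehicle libraries were highest, and Cxcr6 fell with tamoxifen (-0.796 ± 0.19, adjusted p = 0.00225) and with wounding (-0.45 ± 0.13, adjusted p = 0.00959). Cxcl16 overlaps Zmynd15, and Cxcr6 overlaps Fyco1, on the opposite strand.

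Cx3cl1, a membrane-bound ligand of endothelium and epithelium, had 4.105, 4.13, 3.65 and 4.83 RPKM across set A, 4.19, 4.11, 4.23 and 4.26 across set B, and, in unwounded skin, 5.86, 4.54 and 4.305 with tamoxifen and 3.21, 3.71, 3.4005 and 4.17 with vehicle. Unwounded tamoxifen libraries were above all vehicle ones, by a small margin (0.38 ± 0.11, adjusted p = 0.00557), and the wounded sets overlapped. Its receptor Cx3cr1, of monocytes and resident macrophages, had 1.93, 1.998, 1.77 and 1.35 RPKM across set A, 2.46, 1.78, 1.36 and 1.72 across set B, and, in unwounded skin, 0.664, 1.19 and 0.824 with tamoxifen and 1.17, 1.25, 0.976 and 1.09 with vehicle. Every wounded library was above every unwounded one (0.61 ± 0.11, adjusted p = 0.000351), and the tamoxifen difference did not pass (-0.24 ± 0.16, adjusted p = 0.203). The annotated span of Cx3cr1 overlaps several other genes. Xcl1, which lymphocytes release, had 0.797, 1.13, 0.708 and 0.822 RPKM across set A, 0.584, 1.02, 0.515 and 0.825 across set B, and, in unwounded skin, 1.03, 0.572 and 0.878 with tamoxifen and 1.58, 2.08, 2.63 and 2.63 with vehicle. It was lower with tamoxifen (-1.04 ± 0.18, adjusted p = 0.000185) and with wounding (-0.55 ± 0.12, adjusted p = 0.00198), with the 4 vehicle libraries highest. Its receptor Xcr1, which marks cross-presenting dendritic cells, had 1.18, 0.886, 0.714 and 1.42 RPKM across set A, 0.522, 0.446, 0.451 and 0.383 across set B, and, in unwounded skin, 0.399, 0.388 and 0.506 with tamoxifen and 2.73, 2.82, 1.41 and 1.82 with vehicle. Neither the unwounded groups nor the wounded sets overlapped, and Xcr1 fell with tamoxifen (-1.498 ± 0.19, adjusted p = 1.02e-05) and was higher in set A than in set B (0.69 ± 0.17, adjusted p = 0.00917). Xcr1 passed the filter on low values only with the unwounded vehicle libraries, where it was high, which favours the call of a fall. Its fall with wounding (-0.38 ± 0.13, adjusted p = 0.0231) was lost without tamoxifen replicate 4 (0.056).

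Of the atypical receptors not yet described, Ackr1, which venular endothelium uses to present chemokines, had 10.4, 13.6, 13.2 and 20.9 RPKM across set A, 13.1, 8.72, 9.94 and 7.78 across set B, and, in unwounded skin, 8.83, 9.83 and 9.02 with tamoxifen and 15.96, 16.1, 13.7 and 15.5 with vehicle. Unwounded groups did not overlap, and replicate 4 of set A was the highest library. It fell with tamoxifen (-0.701 ± 0.19, adjusted p = 0.00496). The higher level in set A (0.51 ± 0.18, adjusted p = 0.0410) was lost in the fits without any 1 of 11 libraries (0.0504 to 0.129), without the filter (0.0642) and with only the 2 sets in the fit (0.123), besides the blocked fits. The annotated span of Ackr1 overlaps Cadm3 on the same strand. Ackr2, which degrades inflammatory CC chemokines, had 2.21, 1.06, 1.99 and 1.83 RPKM across set A, 1.85, 0.962, 0.983 and 0.871 across set B, and, in unwounded skin, 1.79, 1.75 and 2.52 with tamoxifen and 3.07, 3.28, 4.27 and 4.57 with vehicle. Vehicle libraries were the 4 highest, and replicate 1 of set B stood apart from its set. Ackr2 fell with tamoxifen (-0.77 ± 0.22, adjusted p = 0.00657) and with wounding (-0.78 ± 0.15, adjusted p = 0.000595), and sets A and B differed by 0.45 ± 0.20 (0.106), with a call without replicate 2 of set A (0.0236) or replicate 1 of set B (0.021).

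The 10 members that did not pass the filter were Ccl1, Ccl21c, Ccl26, Ccl28, Ccr10, Ccr1l1, Ccr9, Cxcl15, Cxcl17 and Cxcr1, with no value over 1.45 RPKM. Each of the 47 that passed had a library at the minimum in more than 1 group, and 35 had one in every group. Ccr6 and Xcr1 reached the minimum in every unwounded vehicle library but in too few others to pass without that group. Cxcl11 and Ccr8 also fell short of the filter without it, and likewise without set A. These members were thus tested through groups where they were high, which favours a call of lower values elsewhere. Cxcr1, a neutrophil receptor, averaged 0.259 ± 0.142 RPKM in set A, 0.436 ± 0.155 in set B, 0.0197 ± 0.0341 in unwounded tamoxifen and 0.0134 ± 0.0267 in unwounded vehicle skin. Ccl26 was listed at 0 in all libraries but 1.

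Many members lie in clusters, given here in GENCODE M21 coordinates (GRCm38). In the chromosome 11 cluster of Ccl2, Ccl7, Ccl11, Ccl12, Ccl8 and Ccl1 (82035571 to 82305690), all 5 tested fell with tamoxifen (median -2.52), 3 were higher in set A than in set B and 4 rose with wounding. In the next cluster of that chromosome, Ccl5, Ccl9, Ccl6, Ccl3 and Ccl4 (83525778 to 83664683), 5 of 5 fell with tamoxifen (median -2.01), 5 of 5 rose with wounding (median 2.41) and none was called between sets A and B without the replicate block, though Ccl3 and Ccl9 were called in the blocked fit of the 2 sets. The chromosome 4 cluster of Ccl27a, Ccl21b, Ccl27b, Ccl19 and Ccl21a (41769467 to 42773993) went down in 5 of 5 with tamoxifen (median -1.74) and in 4 of 5 with wounding (median -1.03). Cxcl9, Cxcl10 and Cxcl11 on chromosome 5 (92321347 to 92365485) were all higher in set A (median 1.12), Cxcl11 with the limit of the filter given above. In the chromosome 8 cluster (94745590 to 94812036) Ccl22 and Ccl17 fell with tamoxifen and Cx3cl1, which lies between them, rose. Members in copies or clusters are not independent of each other.

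Of 34 other genes of chemokine signalling outside the symbol rule, 26 fell and 3 rose with tamoxifen in unwounded skin, 13 were higher and 1 lower in set A than in set B, and 26 rose and 1 fell with wounding. Set A had 11 higher and 6 lower than unwounded vehicle skin, and set B 11 higher and 11 lower. Of all genes tested, 34.7% fell and 34.7% rose with tamoxifen, and 26.9% rose and 29.5% fell with wounding. Between the wounded sets 15.6% were higher in set A and 15.5% lower. Against unwounded vehicle skin the shares were 20.4% higher and 19.4% lower in set A, and 30.7% and 28.6% in set B. Rac2, a GTPase of leukocyte migration, averaged 31.7 ± 8.09 RPKM in set A, 19.0 ± 2.30 in set B, 3.80 ± 0.762 in unwounded tamoxifen and 25.5 ± 4.39 in unwounded vehicle skin (SD). Dock2, the exchange factor that activates Rac in leukocytes, was at -2.48 with tamoxifen, 0.53 between sets A and B and 0.76 with wounding, and all 3 differences passed. Rac1 and Cdc42, GTPases that most cells use, were at -0.35 and -0.33 with tamoxifen, both called. Dpp4, a membrane protease that trims chemokines, rose with tamoxifen (0.98, adjusted p = 0.000126) and was the 1 that fell with wounding (-0.50, adjusted p = 0.00180). Pf4, a platelet chemokine that macrophages also express, fell with tamoxifen (-2.81) and rose with wounding (2.001).

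Whether the wounding difference depended on treatment was tested as an interaction, which takes opposite names in the sources. By the sample records' names it was called for 42 members, 37 higher and 5 lower in the tamoxifen arm than in the vehicle arm, with 68.5% of all genes called (33.9% higher and 34.6% lower). By the gene tables' names it was called for 29, 27 higher and 2 lower, with 40.0% of all genes (19.7% higher and 20.2% lower). Both tests use the same 15 libraries. Ccl8 gave 6.31 ± 0.27 (1.77e-09) by the records' names and 1.43 ± 0.27 (0.00111) by the gene tables' names. For Cxcl14 the values were -4.800 ± 0.34 (7.09e-08) and 0.29 ± 0.34 (0.513). Ccl3 gave 2.31 ± 0.36 (6.26e-05) and 1.34 ± 0.36 (0.00912), and Cxcr4 0.22 ± 0.24 (0.420) and 0.83 ± 0.24 (0.0136). The Ccl3 rise was thus larger in the tamoxifen arm under either naming, and its unwounded level was the lower one.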

How the data were processed

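RNA of whole mouse skin was sequenced in 15 libraries of 4 groups. The submitters' processing notes name bcl2fastq, TopHat2 2.1.0, Partek and the build mm10, while no source used here gives the annotation, the counting rule or the use of strand. The authors deposited 1 table of RPKM per gene (24543 genes, 3059 at 0 in every library) and alignment counts per library, which per the file headers are totals and not counts per gene. Since no counts per gene were used, precision rests on the replicates. At the deposited alignment totals, 3 reads of a gene of 1 kb correspond to about 0.0399 to 0.0764 RPKM, which covers counting error only.

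Genes with at least 1 RPKM in at least 3 libraries (13922) were tested on log2(RPKM + 0.5) with limma 3.58.1 (R 4.3.3, trended variance) in 1 model of the 4 groups, with 11 residual and 2.57 prior degrees of freedom. Adjusted p-values are Benjamini-Hochberg values over all genes tested, with a threshold of 0.05, and errors beside differences are limma's standard errors. The deposited ANOVA table was used only for its group names. Scripts ran with Python 3.11.15, numpy 2.4.6, pandas 2.3.3 and matplotlib 3.10.9, and the fit was tested on simulated data.

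Members and lists were chosen with earlier results of these data known. Values in every library are given for fixed sets of ligands and receptors by role and for members called in a comparison with a log2 difference of at least 1 and no overlap, up to 8 per direction. A few further members (Ccl25, Ccl27b, Cxcr5, Ccr3, Ccr8 and Cxcr1) are given by mean or range, and 1 member counted in the totals is not reported here. Groups follow the sample records. Same-numbered libraries of wounded sets A and B deviated together, with correlations of 0.43, 0.13, 0.12 and 0.22 across genes for numbers 1 to 4. Each was over the 0.1 set as the rule for using a replicate block. The other pairs of groups did not meet this for every number, though single values did, as 0.425 for replicate 3 of set A and vehicle skin. Libraries of different number were not compared, so the rule does not establish a pairing. Alternatives were another pseudocount, filter or scaling, library weights, a replicate block, fits of only the groups compared, and leaving out each library. Positions are from GENCODE M21, which matched 56 of the 57 members by symbol, and promoter sequences from RefSeq.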

Additional observations from a re-analysis of the deposited data

Results flagged for a closer look

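Single libraries stood far from the other 3 of their group (a gap over Dixon's critical value) in 7 of 169 groups of 4, where chance gives about 1 in 20. In wounded set B, replicate 1 had 1.85 RPKM of Ackr2 against 0.871 to 0.983 in the others, and 388 RPKM of Ccl8 against 226 to 253. Replicate 4 of set B had 67.0 RPKM of Ccl9 against 98.4 to 101. In unwounded vehicle skin, replicate 2 had 7.59 RPKM of Ccl5 against 2.26 to 2.99, and 2.30 RPKM of Ccr6 against 1.23 to 1.34. The others were near detection. Ccl26 was at 0.0645 RPKM in replicate 1 of set A and Cxcr1 at 0.0534 RPKM in replicate 4 of unwounded vehicle skin, and both were at 0 in the rest of the group.

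The wounding difference itself differed between the treatment arms for 42 members by the sample records' names and for 29 by the gene tables' names (limma interaction). Over all genes tested, 68.5% and 40.0% were called in the same order. By the records' names the smallest adjusted p-values were those of Ccl8 (6.31 on the log2 scale, 1.77e-09), Cxcl14 (-4.80, 7.09e-08) and Cxcl16 (2.095, 8.61e-08). By the gene tables' names Cxcl16 (1.55, 2.89e-05) and Ccl17 (3.57, 0.000121) had the smallest.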

How the results depend on the processing

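Total counts of members called stayed within 1.5 times in all 9 comparisons under every alternative run. Counts in 1 direction did not. The 3 members lower in set A than in set B became 1 without the filter, with only the 2 sets in the fit, or without replicate 1, 2 or 4 of set B, and the 9 higher in set B than in unwounded vehicle skin became 15 with library weights. Of the interactions, those with a negative difference numbered 5 by the sample records' names, or 3 without set A replicate 3, tamoxifen replicate 2 or vehicle replicate 1, and 2 by the gene tables' names, or 1 with the block and without replicate 3 of either unwounded group. Of the single-member results 9241 kept direction and side of the threshold, 214 lost a call, 98 gained one and none reversed. Leaving out each library gave 39 to 44 calls for tamoxifen against vehicle in unwounded skin, 14 to 19 for set A against set B and 30 to 36 for wounding. With the replicate number as a block the counts were 42, 17 and 33 in the same order (44, 18 and 33 without it), and 15 for set A against set B with only those sets in the fit. In unwounded skin, where same-numbered libraries did not meet the rule for a block, the block lost Cxcl10 (0.0700) and Cxcl9 (0.0764). Over all genes, 4328 were called between sets A and B and 7041 with library weights, which gave 25 members. The cause was not tested. The disputed names of the wounded libraries limit every statement on treatment after wounding, and n of 3 or 4 with no depth per gene limits low members.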
